A study of Mus musculus with 12 samples.

Results

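The genes followed in mouse peritoneal macrophages were 10 of sugar breakdown: the glucose transporter Slc2a1 and the glycolytic enzymes Hk1, Hk2, Gpi1, Pfkl, Pfkp, Tpi1, Pgk1, Pkm and Ldha. They were chosen by gene name, and all 10 names were found once among the 55586 genes of the count table, on chromosomes 4 (Slc2a1), 6 (Hk2 and Tpi1), 7 (Gpi1 and Ldha), 9 (Pkm), 10 (Hk1 and Pfkl), 13 (Pfkp) and X (Pgk1). Peritoneal macrophages were left untreated (control), given interferon gamma (IFN-γ), given Remodelin hydrobromide, or given Remodelin hydrobromide and then IFN-γ, with 3 RNA-sequencing libraries in each of the 4 groups. Remodelin is described as an inhibitor of NAT10, the enzyme that places N4-acetylcytidine (ac4C) on RNA, and the series concerns lower ac4C in macrophages of liver cancer. All 4 groups shared RPMI 1640 medium with fetal bovine serum, and strain, age, dose and time were not given in the sources used here.

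Glycolysis carries glucose from the medium to pyruvate and lactate. A membrane transporter lets glucose in, hexokinase traps it as glucose 6-phosphate, phosphofructokinase commits it to breakdown, and the later enzymes split the sugar and recover ATP and NADH. Lactate dehydrogenase turns pyruvate to lactate and gives back NAD+. Macrophages stimulated by bacterial products and IFN-γ are known to raise glucose uptake and lactate release, in part through the hypoxia-inducible factor HIF-1α, which binds promoters of many of these genes.

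The promoters of 4 genes are shown because, among the 10, Ldha and Tpi1 had the lowest log2 fold changes for the average Remodelin effect, Pgk1 had the highest, and Slc2a1 is the way in for glucose. Each sequence is the 250 bases before the RefSeq start of transcription on the strand of the gene (GRCm38.p6), 5′ to 3′, with ACGTG and GCGTG, the core letters of hypoxia response elements, in capitals on either strand. The stretches are chr7:46845554-46845803 on the plus strand for the first of 2 Ldha starts, chr6:124814159-124814408 on the minus strand for Tpi1, chrX:106186850-106187099 on the plus strand for Pgk1 and chr4:119108495-119108744 on the plus strand for Slc2a1.
Ldha: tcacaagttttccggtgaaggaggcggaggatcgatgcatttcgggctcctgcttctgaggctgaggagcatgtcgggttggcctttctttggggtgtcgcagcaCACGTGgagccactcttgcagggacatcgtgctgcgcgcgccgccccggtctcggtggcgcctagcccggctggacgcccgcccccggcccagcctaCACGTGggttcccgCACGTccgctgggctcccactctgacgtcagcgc
Tpi1: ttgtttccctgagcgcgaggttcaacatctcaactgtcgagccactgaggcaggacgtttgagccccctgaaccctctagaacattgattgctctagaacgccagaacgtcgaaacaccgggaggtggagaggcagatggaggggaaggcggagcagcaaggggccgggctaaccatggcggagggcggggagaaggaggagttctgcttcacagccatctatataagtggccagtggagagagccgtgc
Pgk1: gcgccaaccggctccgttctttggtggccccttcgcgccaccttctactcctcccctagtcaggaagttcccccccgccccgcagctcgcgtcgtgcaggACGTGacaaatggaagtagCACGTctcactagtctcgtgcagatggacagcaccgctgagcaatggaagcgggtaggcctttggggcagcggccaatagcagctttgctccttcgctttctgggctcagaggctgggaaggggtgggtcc
Slc2a1: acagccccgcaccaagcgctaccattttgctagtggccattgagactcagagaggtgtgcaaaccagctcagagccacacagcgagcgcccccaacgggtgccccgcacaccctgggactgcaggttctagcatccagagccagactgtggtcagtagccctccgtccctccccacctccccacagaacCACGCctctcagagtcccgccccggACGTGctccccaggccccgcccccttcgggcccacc
Of the 13 promoters of the 10 genes in RefSeq, counted from 250 bases before to 50 after the start, 6 held ACGTG and 6 held GCGTG on either strand. Among 32851 promoters of that length in the mouse table, 19.6% held ACGTG and 32.4% held GCGTG. The E-box CACGTG, which contains ACGTG on both strands, was in 1 of the 13 and in 7.15% of all promoters. That one was Ldha, where both 6-letter capital runs are this motif. The stretches of Gpi1, Tpi1 and the first starts of Hk1 and Pkm held neither core. A match is a description of letters and not a bound site.

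Libraries held 15917454 to 19418665 counts, and the 10 genes took 0.416% to 0.607% of them. Levels are given as CPM, counts scaled to a common library total after TMM scaling. Summed markers of macrophages reached 15032 to 25317 CPM in every library. Summed neutrophil markers were at 47.2 to 55.8 CPM without Remodelin and at 28.9 to 35.1 CPM with it, mesothelial markers at 96.1 to 127 and 55.2 to 74.4 CPM, and B cell markers at 17.6 to 22.7 and 11.8 to 13.6 CPM. The largest sum outside macrophages was that of fibroblast markers, at 368 to 695 CPM without Remodelin and 297 to 524 CPM with it, which overlapped. Of 7 T and NK cell markers only Ncr1 was at 0 in all libraries. Single markers did not all follow their sums for the average Remodelin effect (edgeR). Of 9 mesothelial markers 0 were called higher and 3 lower, and Upk3b, at 43.9 CPM without Remodelin and 12.6 CPM with it, made up much of that sum. At an unadjusted p under 0.05, 3 of the 9 were lower and 3 higher, the latter being Msln, Krt8 and Krt18. Of 4 tested neutrophil markers Mmp8 and Mmp9 were called lower, while S100a8 was at -0.21 ± 0.14 and not called. By sign 3 of the 4 were negative and 1 was positive, with 0 called higher. Of 6 tested B cell markers Ighm alone was called lower. In bulk libraries fewer cells of a type and less RNA per cell cannot be told apart. Control 1 and Remodelin 1 stood apart from the other libraries of their groups. The Spearman correlation, across genes, of a library's deviations with transcript length was 0.46 in control 1, against -0.173 and -0.292 in control 2 and 3, and -0.473 in Remodelin 1, against 0.392 and 0.34 in Remodelin 2 and 3. Remodelin with IFN-γ 1 had a trend of -0.69 with GC content. By Txnip, which differed between libraries with and without Remodelin, both libraries sat with their labels (control 1 at 156 CPM, Remodelin 1 at 78.1 CPM). Txnip was taken with that difference known, so this is a description and no check of the labels.

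Abundance differed widely among the 10 genes. In FPKM, the authors' value per length, Ldha was highest at 409 ± 78.8 (SD over 12 libraries), followed by Tpi1 at 350 ± 86.3, Pkm at 291 ± 49.1 and Pgk1 at 198 ± 39.0. Gpi1 was at 69.0 ± 9.88 FPKM, Slc2a1 at 24.0 ± 2.85 and Pfkl at 12.9 ± 1.79. Hk1 at 6.43 ± 1.26, Pfkp at 6.15 ± 0.755 and Hk2 at 6.05 ± 1.15 FPKM closed the order. The ranges of neighbours did not overlap from Pgk1 down to Hk1. Those of Ldha, Tpi1, Pkm and Pgk1 overlapped from one to the next, although Ldha was above Tpi1 in 12 of 12 libraries, Tpi1 above Pkm in 10 and Pkm above Pgk1 in 11. Hk1, Pfkp and Hk2 overlapped as well, and Pfkp was above Hk2 in 7 libraries. By mean FPKM Ldha exceeded 98.7% of tested genes and Hk2 64.4%. FPKM divides by the deposited gene length, which for some genes was well above the longest transcript. For Pfkl the lengths were 6675 and 3730 bases, for Hk1 8532 and 4278, and for Pkm 5001 and 2432. They were closer for Slc2a1 (3506 and 3260) and Hk2 (5969 and 5513). The order and its overlaps hold for the deposited lengths only and were not computed with transcript lengths.

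None of the 10 genes passed the test for Remodelin, with or without IFN-γ. Of these genes, all of which passed the count filter, 0 were called at an adjusted p under 0.05 by edgeR's quasi-likelihood test for Remodelin against control, where 0.846% of 13474 genes tested were called. None was called when Remodelin was added to IFN-γ, where 0.364% were called, nor for the average of both effects, where 7.04% were. DESeq2 and limma-voom also called 0 of 10 in each. At an unadjusted p under 0.05, edgeR gave 0 of 10, 2 of 10 and 2 of 10, and 12.7%, 16.2% and 26.1% of all genes. The median log2 fold change of the 10 was -0.07, 0.00 and -0.03, beside 0.01, 0.03 and 0.03 over all genes. For the average effect all 10 lay within 0.5 of 0 on the log2 scale, as did 87.7% of genes. Nothing in the labels ties the 3 libraries per group to different animals or cultures, so the p-values measure only the spread between libraries, which may be technical.

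**Figure D1:**
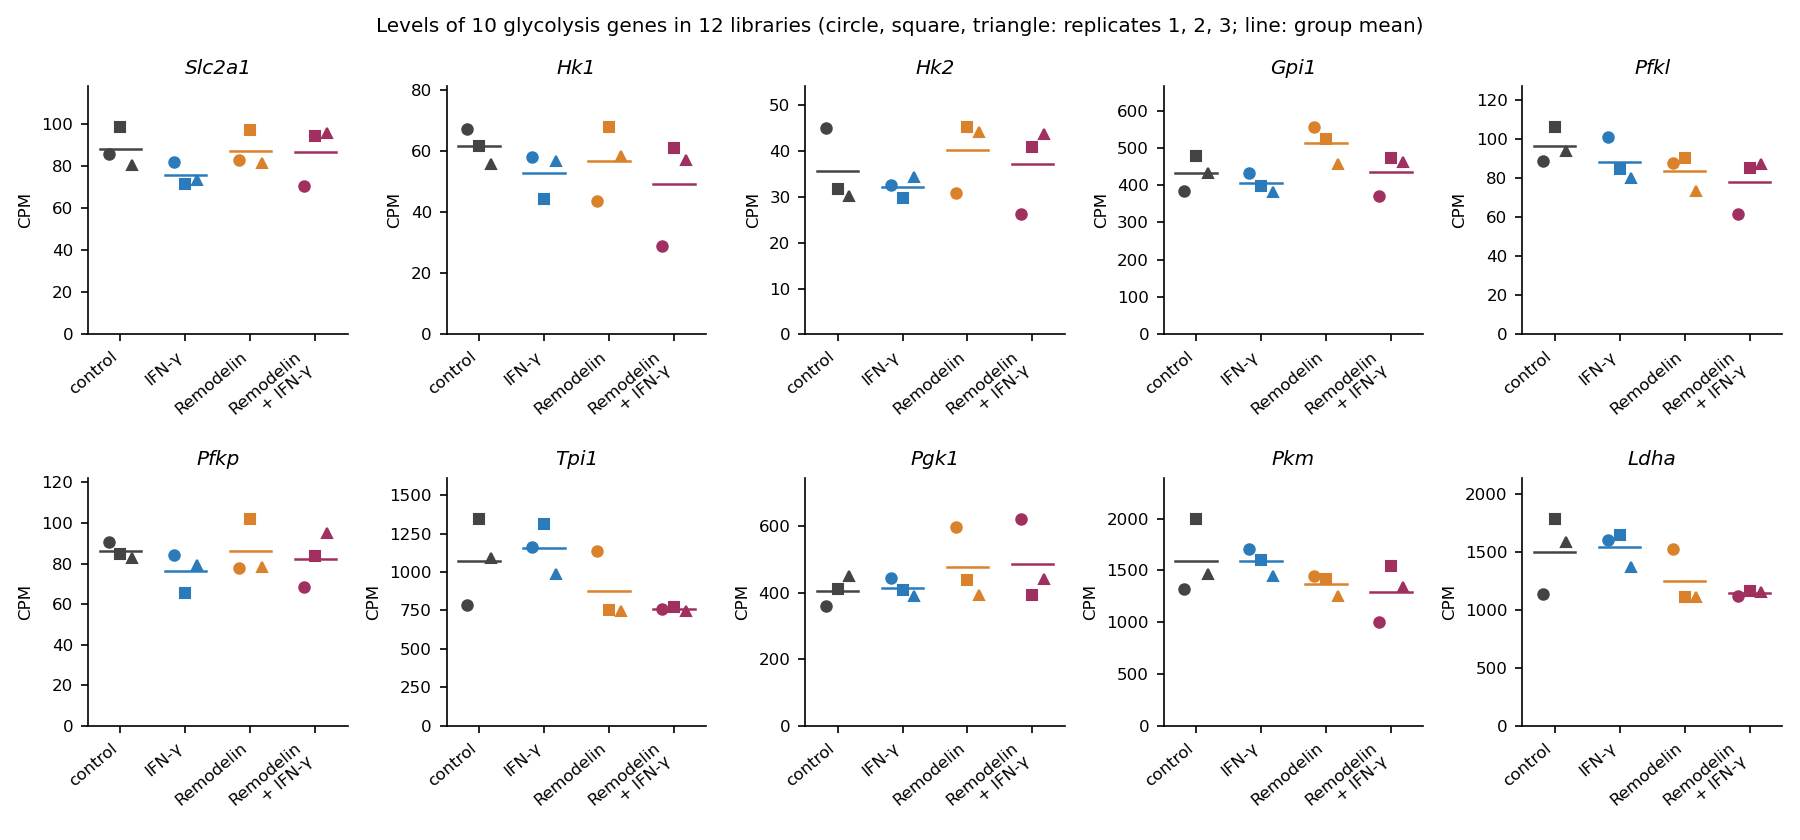
Levels in CPM of each of the 10 genes (vertical axis, from 0) in the 4 groups (horizontal axis), with circle, square and triangle for replicates 1, 2 and 3 and a line at the group mean. Tpi1 and Ldha were low in 5 of 6 libraries with Remodelin and in control 1, while Remodelin 1 stayed with the libraries without Remodelin.

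Slc2a1, Hk1 and Hk2, which bring in and trap glucose, were not called. Slc2a1 encodes GLUT1, the broad basal glucose transporter. It was at 85.7, 98.6 and 80.7 CPM in control, 81.9, 71.8 and 73.6 with IFN-γ, 83.1, 97.4 and 81.4 with Remodelin, and 70.8, 94.3 and 95.7 with both. The groups overlapped, and its average log2 fold change was 0.09 ± 0.11 (SE, 95% interval -0.14 to 0.32, adjusted p = 0.605, edgeR). Hk1, the housekeeping hexokinase held at mitochondria, ran from 29.0 to 67.8 CPM, with the lowest value in Remodelin with IFN-γ 1. Its average effect was -0.12 (95% interval -0.46 to 0.23). Hk2, the inducible hexokinase, ran from 26.3 to 45.2 CPM with an average effect of 0.19 (-0.13 to 0.50). Control 1 stood at 45.0 CPM of Hk2 beside 31.8 and 30.2 in control 2 and 3, and Remodelin 1 at 30.9 beside 45.2 and 44.3. Without both libraries the Hk2 effect of Remodelin alone was 0.53 (adjusted p = 0.0978, edgeR), beside 0.17 with them. Since both lay apart from their group in Hk2, a larger effect without them follows from the choice. The length trends of these libraries, given above, moved with Hk2, and their part in it was not tested. Over 12 libraries Hk2 correlated with that trend at Pearson's r = 0.883 (permutation p = 0.00071, adjusted 0.0071 over 20 relations of 10 genes with 2 trends) and Spearman's rho = 0.853 (permutation p = 0.00066). Without the 2 libraries farthest from the median r was 0.888. The longest Hk2 transcript had 5513 bases, beside a median of 3181 for the tested genes. A library's trend is taken over all genes, so a long gene tends to follow it by construction. The permutations also mixed the groups. These p-values therefore do not show a relation particular to Hk2.

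The middle of the preparatory phase was also without a called gene. Gpi1, which turns glucose 6-phosphate to fructose 6-phosphate, stood at 384, 479 and 432 CPM in control and 555, 524 and 457 with Remodelin. With IFN-γ it was at 434, 399 and 382, and with both at 371, 472 and 463. Only Remodelin 1 and 2 were above all control libraries, and the log2 fold change was 0.25 ± 0.15 (95% interval -0.07 to 0.56, adjusted p = 0.493, edgeR). After removal of the trends of each library with GC content and length it was 0.37 and passed (adjusted p = 0.0426), where 408 genes of 13474 were called. Pfkl, the liver-type subunit of phosphofructokinase, ran from 61.5 to 106 CPM with an average effect of -0.19 (-0.43 to 0.05). Its level correlated with the GC trend of the libraries (r = 0.89, permutation p = 0.00011, adjusted 0.0022, and rho = 0.874, permutation p = 0.00045), and r was 0.86 without the 2 farthest libraries. The longest Pfkl transcript had 57.1% GC, beside a median of 49.8% for the tested genes, so the limit given for Hk2 holds here too. Pfkp, the platelet-type subunit, ran from 65.4 to 102 CPM with an average effect of 0.06 (-0.18 to 0.30).

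Tpi1, which interconverts the 2 triose phosphates, had the lowest fold change of the 10. It was at 786, 1345 and 1091 CPM in control, 1162, 1309 and 988 with IFN-γ, 1137, 750 and 748 with Remodelin, and 762, 772 and 744 with both. The 3 libraries with both agents were below all 3 with IFN-γ, while Remodelin and control overlapped through control 1 and Remodelin 1. Its log2 fold change was -0.60 ± 0.20 with IFN-γ present (95% interval -1.03 to -0.18, unadjusted p = 0.00831 and adjusted p = 0.177, edgeR). Without IFN-γ it was -0.29 ± 0.20 (-0.72 to 0.13). The average was -0.45 ± 0.14 (-0.75 to -0.15, adjusted p = 0.0673), a fold of 0.734 (0.596 to 0.904).

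Ldha, which reduces pyruvate to lactate at the end of the pathway, showed the same split of libraries. It was at 1136, 1782 and 1580 CPM in control, 1598, 1647 and 1366 with IFN-γ, 1526, 1107 and 1106 with Remodelin, and 1116, 1162 and 1149 with both. Again the groups with and without Remodelin did not overlap in the presence of IFN-γ and overlapped in its absence. Its log2 fold change was -0.43 ± 0.18 with IFN-γ (95% interval -0.81 to -0.05, unadjusted p = 0.0297 and adjusted p = 0.258, edgeR) and -0.27 ± 0.18 without. The average was -0.35 ± 0.13 (-0.62 to -0.08, adjusted p = 0.103), a fold of 0.786. Tpi1 and Ldha were the 2 genes of 10 below without overlap when Remodelin was added to IFN-γ, a pattern held by 15.6% of all genes tested.

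The calls on these 2 genes turned on single libraries. Without control 1 both passed for the average effect, with adjusted p = 0.0176 for Tpi1 and 0.0281 for Ldha (edgeR). Over all genes 1738 of 13684 were then called, beside 949 of 13474 with all libraries. Without Remodelin 1 the adjusted p-values were 0.012 and 0.0244, and 1960 genes of 13784 were called. With both libraries left out the adjusted p-values were 0.000978 and 0.00167, at -0.65 and -0.52, and 3668 genes of 13666 were then called. Remodelin against control then gave -0.70 for Tpi1 (adjusted p = 0.0137) and -0.61 for Ldha (adjusted p = 0.0153), and 1854 genes of 13666 were called. For both genes control 1 and Remodelin 1 sat with the other treatment. Leaving either or both out widens the difference by that choice, so these values show dependence on the libraries and are no separate evidence. Leaving out any of the other 10 libraries gave no call on either gene, and without control 2 the adjusted p rose to 0.197 for Tpi1 and 0.265 for Ldha. With GC and length trends removed, both passed at smaller sizes, -0.31 (adjusted p = 0.03) for Tpi1 and -0.26 (adjusted p = 0.0441) for Ldha. Under the same setting Gpi1 (0.28, adjusted p = 0.0126) and Slc2a1 (0.25, adjusted p = 0.0324) passed in the other direction. Over all genes 1516 of 13474 were called there. With no filter on low counts Tpi1 alone passed (adjusted p = 0.0282), where 1406 genes of 24366 were called. With the GC trend alone removed 0 of 10 passed, where 768 genes of 13474 were called.

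**Figure D2:**
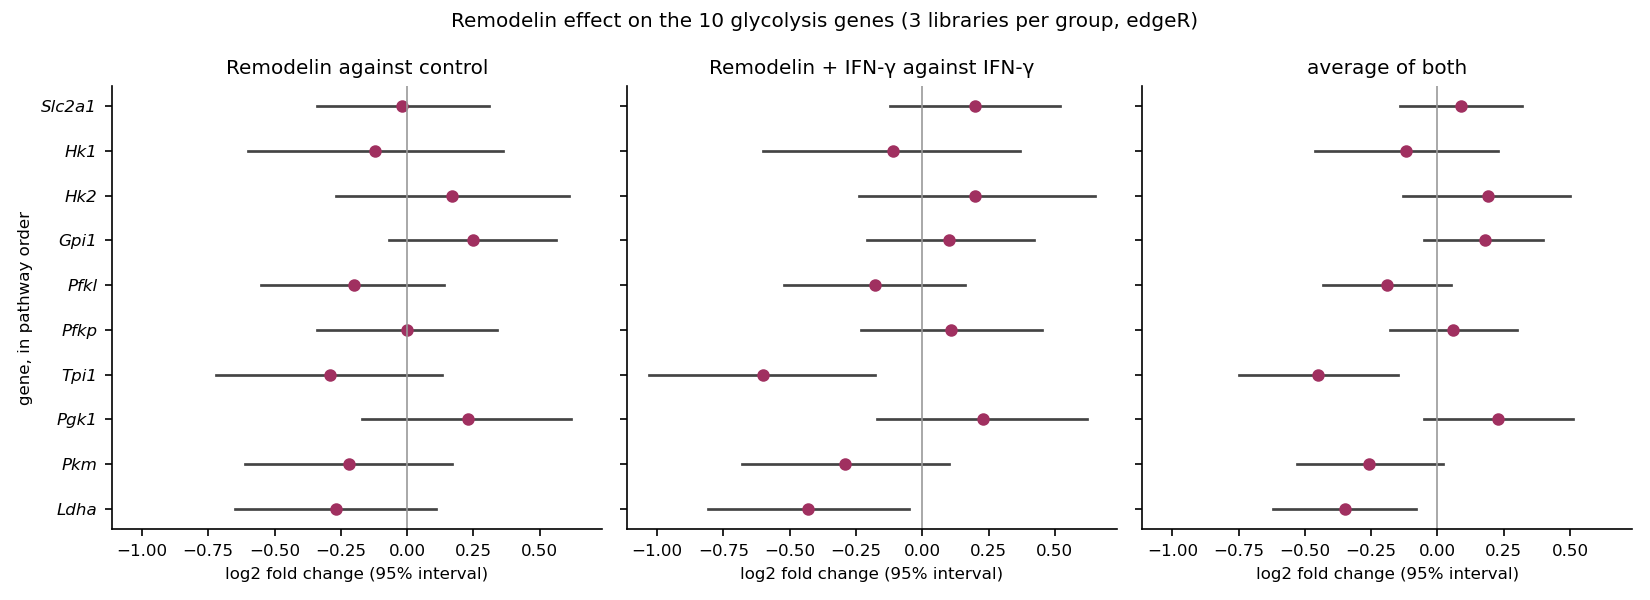
Log2 fold change (point) with its 95% interval (line) for the 10 genes in pathway order, for Remodelin against control, both agents against IFN-γ, and the average of both. Intervals of Tpi1 and Ldha lie below 0 in the middle and right panels, and those of the other 8 genes include 0 in every panel.

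The remaining enzymes recover ATP. Pgk1, which makes the first ATP of the pathway, had the highest average effect at 0.23 ± 0.13 (95% interval -0.05 to 0.51, adjusted p = 0.276, edgeR). It was at 359, 410 and 450 CPM in control, 444, 408 and 390 with IFN-γ, 598, 437 and 393 with Remodelin, and 621, 393 and 442 with both. Only Remodelin 1 and Remodelin with IFN-γ 1 lay above all libraries without Remodelin. Pkm, which makes the last ATP and pyruvate, was at 1318, 1998 and 1467 CPM in control, 1709, 1604 and 1448 with IFN-γ, 1449, 1414 and 1249 with Remodelin, and 1003, 1542 and 1338 with both. The groups overlapped, and its average effect was -0.26 ± 0.13 (-0.53 to 0.02, adjusted p = 0.221). Counts per gene do not part the 2 splice forms of Pkm. Other genes with at least 95% identity over 200 bases or more could exchange reads with Pkm (2 such genes), Pgk1 and Ldha (4 each), Tpi1 and Gpi1 (1 each). The counts of these near-identical genes came to 0.041% of those of Ldha and to 1.09% of those of Pkm, with the other 3 between.

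IFN-γ, with or without Remodelin, gave no call on the 10 genes. Against control 0 of 10 passed in edgeR, where 0.0148% of genes (2) were called, and DESeq2 and limma-voom called 0 of 10. On top of Remodelin 0 of 10 passed, where edgeR called 0 genes (0%). In that comparison 1043 genes had an unadjusted p under 0.05, DESeq2 called 1 gene and limma-voom called 0. No member had an unadjusted p under 0.05 in either comparison. Their medians were -0.11 and -0.11, beside 0.00 and -0.01 over all genes. Slc2a1 had the lowest value with IFN-γ alone, tied with Hk1 at -0.22, and its 95% interval ran from -0.54 to 0.10. Ldha was at 0.04 (-0.34 to 0.41) and Pkm at -0.01 (-0.40 to 0.38). The number of genes called for IFN-γ against control differed by source. Beside the 2 of edgeR, the authors' deposited table called 122 genes (0.593% of those with a value). That table called 129 genes (0.628%) for Remodelin against control. The IFN-γ targets Irf1 and Gbp2, picked after their values were seen, had log2 fold changes of 0.12 and 0.30 against control, with adjusted p of 0.948 and 0.889 (edgeR).

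Whether the Remodelin effect differed with IFN-γ was tested as an interaction. It called 0 of the 10 and 0.00742% of all genes (1 gene), no member had an unadjusted p under 0.05, and DESeq2 and limma-voom called 0 of 10. The interaction was -0.31 for Tpi1 (95% interval -0.91 to 0.29), -0.16 for Ldha (-0.70 to 0.38) and 0.21 for Slc2a1 (-0.24 to 0.67). The larger Tpi1 and Ldha values in the presence of IFN-γ were thus not shown to differ from those without it.

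Tpi1 and Ldha split the libraries in the same way. The 12 libraries fell on 2 sides of a gap, with 6 libraries at 744 to 786 CPM of Tpi1 and 1106 to 1162 CPM of Ldha, and 6 at 988 to 1345 and 1366 to 1782 CPM. The lower side held control 1 and 5 libraries with Remodelin, and the upper side held Remodelin 1 and 5 without it. Length trends ran from -0.101 to 0.46 on the lower side and from -0.473 to 0.0842 on the upper. Over all 12 libraries Tpi1 correlated with the length trend at Pearson's r = -0.826 (permutation p = 0.00283, adjusted 0.0131 over the 20 relations) and Spearman's rho = -0.706 (permutation p = 0.0134), and r was -0.834 without the 2 farthest libraries. Ldha did so at r = -0.827 (permutation p = 0.00327, adjusted 0.0131) and rho = -0.762 (permutation p = 0.00572), with -0.835 without 2 libraries. With the GC trend r was 0.678 for Tpi1 (permutation p = 0.0164, adjusted 0.047, rho 0.699 with permutation p = 0.0139, r 0.683 without 2 libraries). For Ldha it was 0.724 (permutation p = 0.0078, adjusted 0.026, rho 0.65 with permutation p = 0.0248, r 0.696 without 2). These pooled values span both sides of the gap. The longest transcripts of Tpi1 (1607 bases) and Ldha (1815 bases) were below the median of 3181 for the tested genes. Their GC content (53.5% and 51.5%) was above the median of 49.8%. As for Hk2, genes of such length and GC content tend to follow the trends by construction, which the p-values do not set apart. Within the 6 libraries of a side Pearson's r with the length trend was 0.204 and -0.419 for Tpi1 (lower and upper side) and 0.142 and -0.423 for Ldha. With the GC trend r was 0.335 and 0.4 for Tpi1 and 0.223 and 0.691 for Ldha, in the same order. These values within sides are given as a description. Between Tpi1 and Ldha, Pearson's r was 0.926 and Spearman's rho 0.943 within the upper side, with r at 0.75 without the 2 farthest libraries, and 0.385 and 0.314 within the lower side. No test is given for these, since the pair was picked from 45 pairs for its likeness and the sides from the values of Tpi1. With group means removed r over all 12 was 0.985, and with GC and length trends removed as well it was 0.94.

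**Figure D3:**
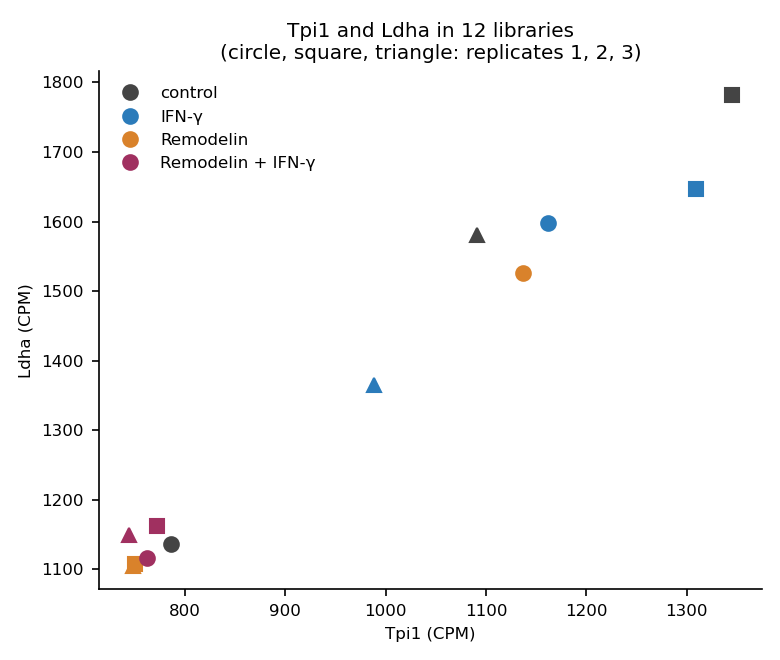
Ldha against Tpi1, both in CPM and on axes that do not start at 0, in the 12 libraries (colour for the group, shape for the replicate). At the lower left lie 6 libraries, 5 of them with Remodelin together with control 1, and 6 others spread to the upper right, 5 without Remodelin together with Remodelin 1.

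Other pairs were looser. Of 45 pairs 10 had an adjusted permutation p under 0.05, and 9 of those were positive. Hk1 and Hk2 had r = 0.743 (permutation p = 0.00055, adjusted 0.00825) and rho = 0.825 (permutation p = 0.00166), with 0.649 without the 2 farthest libraries and 0.888 within groups. Their r was 0.716 after removal of GC and length trends. Slc2a1 and Pfkp had r = 0.82 (permutation p = 0.0009, adjusted 0.00828) and rho = 0.825 (permutation p = 0.00164), but -0.202 after removal of the trends. The negative pair, Hk1 and Pgk1, had r = -0.795 (permutation p = 0.00697, adjusted 0.0348) and rho = -0.573 (permutation p = 0.0558), and rested on 2 libraries, with -0.193 without them. The mean of the 10 genes' centred log2 CPM ran from -0.32 in Remodelin with IFN-γ 1 to 0.20 in control 2. Of 8823 other genes with a mean of at least 5 CPM, the most like it over 12 libraries were Gsn (r = 0.961), the glycolytic enolase Eno1, Flywch1 and Man2c1 (each 0.958) and Got2 (0.954). The least like were Gmps (-0.943), Pnpt1 (-0.932) and Igsf6 (-0.929). All these values share library depth and the trends above.

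Isoenzymes not among the 10 made up much of the RNA for some steps, while protein and activity were not measured here. In FPKM, Hk3, the hexokinase of myeloid cells, made up 91.1% to 95.5% of the hexokinase sum, and Hk1 and Hk2 made up 2.45% to 4.25% and 1.92% to 4.61%. Pfkl held 55.5% to 64.3% of phosphofructokinase, Pfkp 24.7% to 31.5% and the muscle-type Pfkm 10.2% to 14.2%. Ldha held 91.6% to 93.9% of the sum with Ldhb, whose product favours the return to pyruvate. Slc2a1 held 47.8% to 56.7% of the sum of 6 glucose and sugar carriers (Slc2a1, Slc2a3, Slc2a6, Slc2a8, Slc2a9 and Slc2a13) without Remodelin and 55.6% to 62.3% with it, which overlapped. Slc2a6, a lysosomal carrier, held 25.9% to 32.6% without and 14.7% to 21.0% with Remodelin. Slc2a4 and Slc2a10, each under 1 CPM on average with and without Remodelin, were tested but are not in that sum. A share moves when any member of its sum does, and its size rests on the same deposited gene lengths as the order above.

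**Figure D4:**
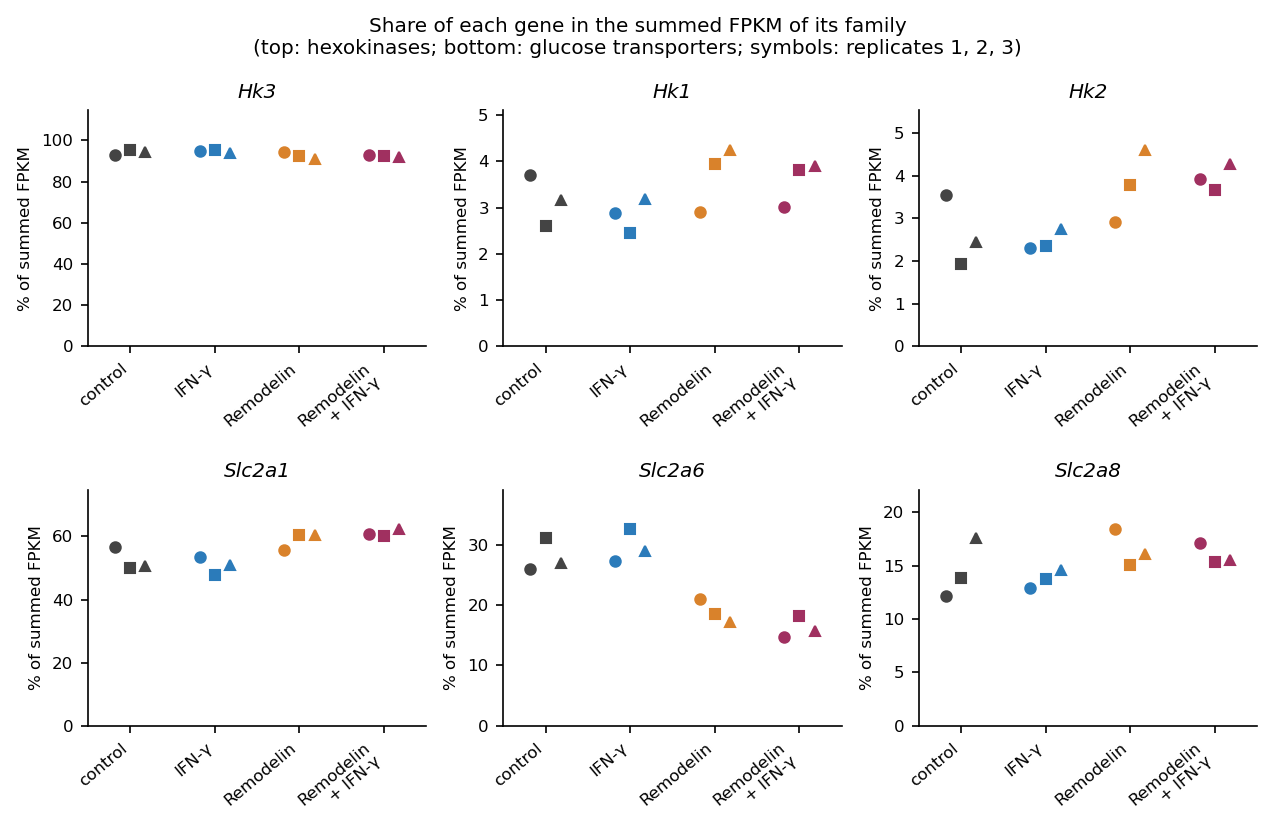
Percent of the summed FPKM of hexokinases (top row) or glucose carriers (bottom row) taken by each gene, per library, with each axis from 0 and scaled to its gene. Hk3 is above 91% in every library, and the Slc2a6 share lies at or under 21.0% in all 6 libraries with Remodelin and at or above 25.9% in the other 6.

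Other genes of the pathway were listed by function, and the average Remodelin effect, which calls 7.04% of all genes, is given for them. The lists were written with earlier results of these data known, so the counts of calls in them here and below are a description. Of 15 tested glycolysis enzymes outside the 10, 0 were higher and 2 lower, with a median of -0.10. Hk3 was lower with Remodelin, at 574 against 785 CPM (-0.45 ± 0.13 on the log2 scale, adjusted p = 0.0457, edgeR). Its 6 libraries with Remodelin lay below the 6 without, a pattern held by 3.42% of all genes tested. Hk3 lost the call under 14 of 22 alternatives (adjusted p up to 0.146). Aldoc, a minor aldolase, fell from 13.3 to 8.98 CPM (-0.57 ± 0.14, adjusted p = 0.0227) and lost the call under 6 of 22 alternatives (adjusted p up to 0.077). The major aldolase Aldoa was at 0.10 ± 0.11, the mutase Pgam1 at -0.15 ± 0.10 and the enolases Eno1, Eno2 and Eno3 at -0.10 ± 0.13, -0.08 ± 0.11 and 0.18 ± 0.13. Ldhb was at -0.23 ± 0.13 and Pfkm at 0.00 ± 0.14. Gapdh cannot be read here: it ran from 3.81 to 245 CPM among libraries, and its 77 near-identical copies held 15948 counts against its own 15615.

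Transport and regulation added 2 calls. Slc2a6 fell from 42.2 to 23.5 CPM (-0.85 ± 0.15, adjusted p = 0.00297, edgeR) and kept the call under all 22 alternatives. It was 1 of 14 tested sugar, lactate and pyruvate carriers, with 0 higher and a list median of 0.01. Slc2a6 was at 35.9, 56.4 and 39.4 CPM in control, 38.4, 44.9 and 38.2 with IFN-γ, 28.7, 27.3 and 21.3 with Remodelin, and 15.6, 26.1 and 22.0 with both. All 6 libraries with Remodelin were below all 6 without, as for 3.42% of all genes tested. Of 7 tested regulators of flux, 1 was lower and 0 higher, with a median of 0.07. That gene, Pgp, a phosphatase that clears side products of glycolysis, fell from 65.5 to 47.9 CPM (-0.45 ± 0.11, adjusted p = 0.0194) and lost the call under 8 of 22 alternatives (adjusted p up to 0.134). Summed neutrophil, mesothelial and B cell markers, given above, were lower in the same 6 libraries, while the larger fibroblast sum overlapped. The part of these cells in the values of Slc2a6, Hk3, Aldoc and Pgp was not tested.

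The routes around glycolysis had few calls. None of 11 tested genes of pyruvate dehydrogenase and its kinases passed in edgeR (4 at an unadjusted p under 0.05, median 0.13), none of 9 of the pentose phosphate pathway (1, median 0.02) and none of 17 of the citrate cycle (4, median -0.07). Of 9 glycogen genes 2 were higher and 0 lower, with a median of 0.24. Gbe1, the branching enzyme, rose from 10.5 to 18.3 CPM (0.79 ± 0.16, adjusted p = 0.00808, edgeR), and Gyg, the glycogenin primer, from 152 to 209 CPM (0.45 ± 0.11, adjusted p = 0.0225). Gbe1 kept its call under all 22 alternatives and Gyg under 18.

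Further calls fell among sensors of glucose and oxygen. Of 5 glucose-sensing genes 2 were lower and 0 higher, with a median of 0.03. Txnip, an arrestin that limits glucose uptake and answers to glucose through MondoA and ChREBP, was at 156, 146 and 178 CPM in control, 177, 158 and 159 with IFN-γ, 78.1, 78.4 and 70.7 with Remodelin, and 84.7, 79.5 and 78.6 with both. Every library with Remodelin was below every library without, as for 3.42% of all genes tested, and the average effect was -1.05 ± 0.09 (adjusted p = 1.18e-05, edgeR). Its relative Arrdc4 fell by 0.47 ± 0.10 (adjusted p = 0.0143), a call that ended without IFN-γ 1 (adjusted p = 0.0556). Of 26 genes of the hypoxia response 3 were higher and 1 lower, with a median of 0.15. Vegfa, an angiogenic factor, rose from 18.0 to 37.6 CPM (1.06 ± 0.12, adjusted p = 7.65e-05), the mitophagy receptor Bnip3 from 8.39 to 14.6 CPM (0.79 ± 0.17, adjusted p = 0.0113) and the oxidase Ero1a from 23.0 to 32.2 CPM (0.49 ± 0.12, adjusted p = 0.0215). Ero1a lost the call under 7 of 22 alternatives (adjusted p up to 0.124), among them removal of the GC trend (0.27, adjusted p = 0.0757). Egln2, an oxygen-sensing prolyl hydroxylase, fell from 114 to 71.5 CPM (-0.68 ± 0.12, adjusted p = 0.00353). In the same comparison the 10 glycolysis genes ran from -0.45 (Tpi1) to 0.23 (Pgk1), with 0 called.

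**Figure D5:**
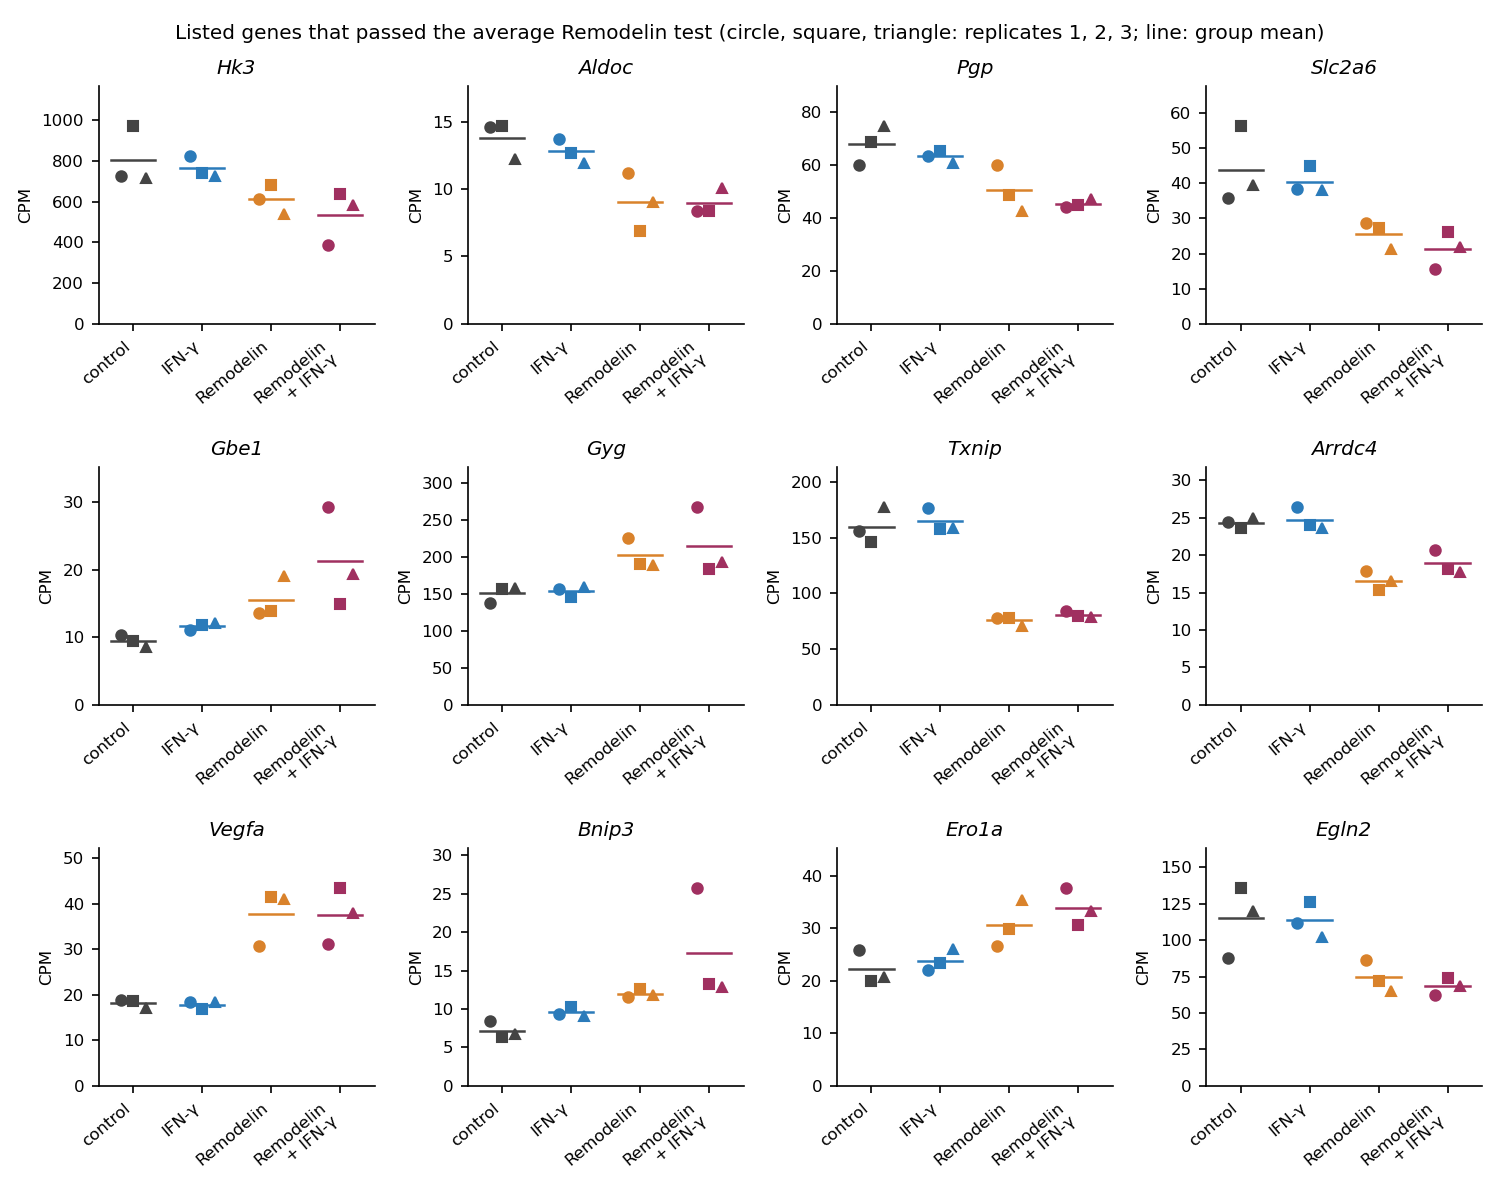
Levels in CPM (vertical axes from 0) of the 12 listed genes outside the 10 that passed the average Remodelin test, by group, with circle, square and triangle for replicates 1, 2 and 3 and a line at the group mean. Txnip is at 70.7 to 84.7 CPM in the 6 libraries with Remodelin and at 146 to 178 CPM in the other 6.

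In the authors' deposited table of comparisons, 2 of the 10 genes were called between the groups with both agents and with IFN-γ alone, where 2.89% of genes with a value were. These were Tpi1 (log2 fold change -0.55, adjusted p = 0.00389) and Ldha (-0.39, adjusted p = 0.0361) in the authors' deposited table. It called 0 of the 10 in its other 4 comparisons. Of all genes with a value it called 0.628% for Remodelin against control and 0.593% for IFN-γ against control. For both agents it called 3.48% against control and 0.00489% against Remodelin. The lowest adjusted p of the 10 for Remodelin against control was 0.641 in that table. No source used here names the tool behind that table.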

How the data were processed

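Per the file headers, the authors deposited raw counts of reads for each gene and library, with FPKM values and gene lengths beside them. The submitters' processing notes name CASAVA 1.8, HISAT2 2.0.5 and featureCounts 1.5.0-p3. Build, annotation release and strand setting: not given in the sources used here. The table's coordinates matched GRCm38 (GENCODE M21) for 1457 of 52081 shared identifiers, so none is printed from it. The authors' deposited log2 fold changes and adjusted p-values were read only for a side-by-side count. FPKM denominators were 0.954 to 1.02 times the TMM-scaled total.

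Counts were fitted over all 12 libraries with edgeR 4.0.16 in R 4.3.3 (TMM scaling, default count filter by group, which kept 13474 of 55586 genes, quasi-likelihood test, Benjamini-Hochberg adjustment over all genes tested, called under 0.05). The average Remodelin effect is the mean of the effects with and without IFN-γ. Log2 CPM for correlations used a prior count of 2, and permutation tests were two-sided with 100000 draws unless exact. A floor of 3 counts was 0.152 to 0.192 CPM, for counting error only. The common biological coefficient of variation was 18.6%. On simulated counts the fit recovered 83.1% of 2-fold and 43.9% of 1.5-fold changes for the average effect, 49.2% and 7.58% for Remodelin against control, and 55.4% and 16.7% for Remodelin added to IFN-γ. The simulated libraries had no trends with GC content or length, and the changed genes were drawn at random. These shares therefore do not give the power for the 10 genes. Groups came from the sample labels. Transcript length and GC content came from the longest GENCODE M21 transcript, for 99.0% of genes tested and for all 10 members. All 10 genes were named. Listed genes were named where they passed a test, are isoenzymes of the 10 or cover a step that none of the 10 does. The likeness rule took 5 most like and 3 least like genes. The genes, lists and alternatives were chosen with earlier results of these data known. Alternatives used DESeq2 1.42.0, limma-voom 3.58.1, other scalings and filters, a replicate block, removal of library trends (lowess span 0.3), the compared groups alone and libraries left out.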

Additional observations from a re-analysis of the deposited data

How the results depend on the processing

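Calls on the 10 genes were 0 under each alternative run, with these exceptions. For Remodelin against control there was 1 after removal of GC and length trends (Gpi1) and 2 without both control 1 and Remodelin 1 (Ldha and Tpi1). For Remodelin added to IFN-γ there was 1 without both (Tpi1). For the average effect there was 1 with no count filter (Tpi1), 4 after removal of GC and length trends, 2 without both libraries, and 0 to 2 with single libraries left out. Among 816 values of the 10 genes under alternatives, 57 had the opposite sign, 0 of them with an adjusted p under 0.05, and 15 were called. The main values that turned were 0.31 or less in size. The comparison of the 2 groups alone cannot be made for the average and the interaction.

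The opposite signs for Remodelin against control were as follows. Slc2a1 (main -0.02) was at 0.02 with DESeq2 size factors and with DESeq2, 0.03 with no filter, 0.01 with the 2 groups alone, 0.10 after GC removal with or without the replicate block, and 0.14 after GC and length removal. With single libraries left out it ran from -0.10 to 0.07. Hk1 (-0.12) was at 0.04 after GC removal, 0.07 after GC and length removal, 0.02 with the replicate block and GC removal and 0.10 without both libraries, and ran from -0.27 to 0.03 with single libraries left out. Pfkp (0.00) was at -0.01 with limma-voom, 0.00 with the replicate block, -0.04 after GC removal with or without the block and -0.14 after GC and length removal, and ran from -0.14 to 0.07. After GC and length removal Pfkl was at 0.01 and Pkm at 0.03, and Pgk1 was at -0.05 without both libraries.

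For Remodelin added to IFN-γ, Hk1 (-0.11) was at 0.05, 0.04 and 0.03 after removal of GC, of GC and length, and of GC with the replicate block, and ran from -0.30 to 0.18 with single libraries left out. Pfkl (-0.18) was at 0.02, 0.01 and 0.02 in the same order. Pfkp (0.11) was at -0.07 after GC and length removal and ran from 0.00 to 0.25. For the average effect Hk1 (-0.12) was at 0.05, 0.05 and 0.03 in that order and ran from -0.21 to 0.05, Pfkl was at 0.01 after GC and length removal, and Pfkp (0.06) was at -0.01, -0.11 and -0.01 and ran from -0.01 to 0.15. For IFN-γ against control Tpi1 (0.10) was at -0.08 without both libraries and ran from -0.08 to 0.30. For Remodelin with IFN-γ against Remodelin, Pgk1 (0.03) was at -0.01 with DESeq2 size factors, with no filter and with DESeq2, -0.03 after GC and length removal and 0.00 with the replicate block and GC removal, and ran from -0.21 to 0.23. The interaction of Tpi1 was 0.10 without both libraries. The causes were not tested.

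Counts over all genes moved more. For Remodelin against control (114) they ran from 20 without control 2 to 216 without Remodelin with IFN-γ 1, and were 283 with no filter, 267 with DESeq2, 190 after GC removal, 408 after GC and length removal, 58 with the replicate block, 84 with the block and GC removal, 22 with the 2 groups alone and 1854 without both libraries. For Remodelin added to IFN-γ (49) they ran from 10 without IFN-γ 2 to 144 without Remodelin 1, and were 271, 261, 70, 358, 24, 37, 83 and 464 in the same order of settings. For the average effect (949) they ran from 298 without control 2 to 1960 without Remodelin 1, and were 578 with the replicate block, 491 with the block and GC removal, 1516 after GC and length removal and 3668 without both libraries. Same-numbered libraries of different groups correlated at -0.547 to 0.261, over 0.1 in 5 of 18 pairs. The labels do not say whether a number marks a shared animal or day, and these correlations cannot decide it. The replicate block gave 0 calls on the 10 genes.

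Among listed genes, 40 of 264 values under alternatives lost their call and 0 changed sign. Single libraries ended the call of Hk3 (control 2 and 3, IFN-γ 1, 2 and 3, Remodelin 2 and 3, and Remodelin with IFN-γ 1 and 3, adjusted p up to 0.146), Aldoc (control 2, IFN-γ 1 and 2, Remodelin 2 and 3, and Remodelin with IFN-γ 1, up to 0.077), Pgp (control 2 and 3, IFN-γ 1 and 2, Remodelin 3, and Remodelin with IFN-γ 1, up to 0.0625), Gyg (control 2, and IFN-γ 1 and 2, up to 0.0711), Ero1a (control 2 and 3, IFN-γ 1 and 2, and Remodelin 3, up to 0.0768) and Arrdc4 (IFN-γ 1, 0.0556). GC removal without and with the replicate block ended those of Hk3 (adjusted p = 0.0945 and 0.129), Pgp (0.0945 and 0.134) and Ero1a (0.0757 and 0.124), and with the block that of Gyg (0.0615). Hk3 also lost it with DESeq2 size factors (0.0616), the replicate block (0.0556) and GC and length removal (0.0509).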
